A study of Mus musculus with 24 samples.

Results

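Collagen genes were followed across 4 groups of mouse hearts. The family was taken as every protein-coding gene whose mouse symbol is Col, a number, the letter a and a number. The rule found 44 genes among the 52350 in the count files, and 34 of them were detected well enough to be tested, among 15294 tested genes of all kinds. By class, the 44 comprised 11 fibrillar chains, 9 basement membrane and related chains, 9 FACIT chains (fibril-associated collagens with interrupted helices), 6 beaded filament chains of type VI, 3 short-chain network chains, 4 transmembrane chains and 2 others.

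Collagens are secreted or membrane-bound proteins whose chains wind around one another into a rope-like helix. Fibrillar collagens assemble into the tensile fibres between muscle cells, and network-forming collagens such as type IV build the sheet that lies under endothelium and around each cardiomyocyte. In the heart the fibrillar chains come mainly from fibroblasts, whereas endothelial and mural cells also make basement membrane chains, and the assembled matrix carries force between cells and keeps capillaries open.

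The hearts came from 24 male wild-type C57Bl/6 mice aged 12 weeks, kept in 12 h of light and 12 h of dark. Zeitgeber time (ZT) is counted from lights on, so that ZT0 opens the rest phase and ZT12 the active phase of a nocturnal animal. Sedentary mice gave the ZT0-SED and ZT12-SED groups, and mice that had run once on a treadmill (60 min, 10 m/min, 0% grade) gave ZT0-EX and ZT12-EX, with 6 mice in each and prior treadmill habituation stated in the labels. Replicates 1 to 3 of every group were sequenced on flow cell 1 and replicates 4 to 6 on flow cell 2, and how long after running the hearts were taken was not given in the sources used here.

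Libraries held 9697334 to 23067191 counts. Levels are given as CPM, counts scaled to a common library total after TMM normalization. Mitochondrial transcripts took 40.7% to 55.1% of counts in flow cell 1 libraries of ZT12-SED, 25.5% to 36.6% in the other libraries of that flow cell and 2.70% to 23.7% on flow cell 2. In 3 libraries, ZT12-SED 1, ZT12-SED 2 and ZT12-EX 4, the TMM factors were 0.538, 0.635 and 0.728, below all others. Collagen calls by time of day are given with and without them. Values of genes outside the family are from the fit of all 24 libraries alone. Transcripts of fast skeletal muscle summed to 733 to 3166 CPM in 6 libraries, among them all ZT0-EX libraries of flow cell 2, and to 11.3 to 52.7 CPM in the other 18. All 8 cardiomyocyte markers were detected in every group, with a sum of 30015 CPM or more in each library. The labels call the samples biological replicates.

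Heart tissue held mostly basement membrane and fibrillar collagen transcripts. Per kilobase of transcript and averaged over the 24 libraries, basement membrane chains made up 39.4% of the summed level of the family, fibrillar chains 36.3%, type VI chains 16.6%, FACIT chains 4.19%, short-chain network chains 1.99%, transmembrane chains 1.23% and the others 0.229%. The highest single levels were those of Col3a1, the chain of type III collagen, at 21.9 CPM per kb, and Col4a1, which with Col4a2 builds the widespread type IV network of basement membranes, at 21.4 CPM per kb. Col4a2 followed at 16.1 and Col6a1 at 13.1 CPM per kb. The type I chains Col1a2 and Col1a1 were at 8.72 and 6.53 CPM per kb. These levels use the union of exons as length, so a gene with long alternative ends reads lower on this scale.

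Of the 44 genes, 10 fell below the filter on low counts. They were Col2a1, Col11a1, Col24a1, Col9a1, Col9a2, Col19a1, Col6a4, Col10a1, Col17a1 and Col26a1, several of them known from cartilage or epidermis. Col10a1, a chain of growth plate cartilage, had 0 counts in all 24 libraries, which allows a level of up to 0.00753 CPM over the pooled libraries. The highest mean among the 10 was 0.281 CPM (Col26a1), and the lowest mean among the tested genes was 0.392 CPM (Col9a3), so the filter separated neighbours with similar levels.

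Time of day was the contrast in which collagen transcripts differed. In sedentary hearts 9 of the 34 tested collagens were lower at ZT12 than at ZT0 and 2 were higher, where 2.74% and 2.46% of all genes tested were lower and higher and 5.2% passed in all. In exercised hearts 8 were lower and 0 were higher, against 0.837% and 0.811% of all genes, 1.65% in all. The zero for higher genes is from edgeR, where 15 collagens had an unadjusted p under 0.05, 5 of them higher, beside 14.3% of all genes in either direction. DESeq2 called 1 as higher, and 3.5% of all genes in either direction. The same 8 genes were lower in both comparisons, which share no library: the fibrillar Col1a1, Col3a1, Col5a1 and Col5a3, the basement membrane Col4a1, Col4a2 and Col15a1, and the type VI chain Col6a3. The median log2 difference over the 34 collagens was -0.31 in sedentary and -0.29 in exercised hearts, beside -0.01 and 0.02 over all genes. In whole tissue, fewer cells of a type and less RNA per cell cannot be told apart.

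**Figure D1:**
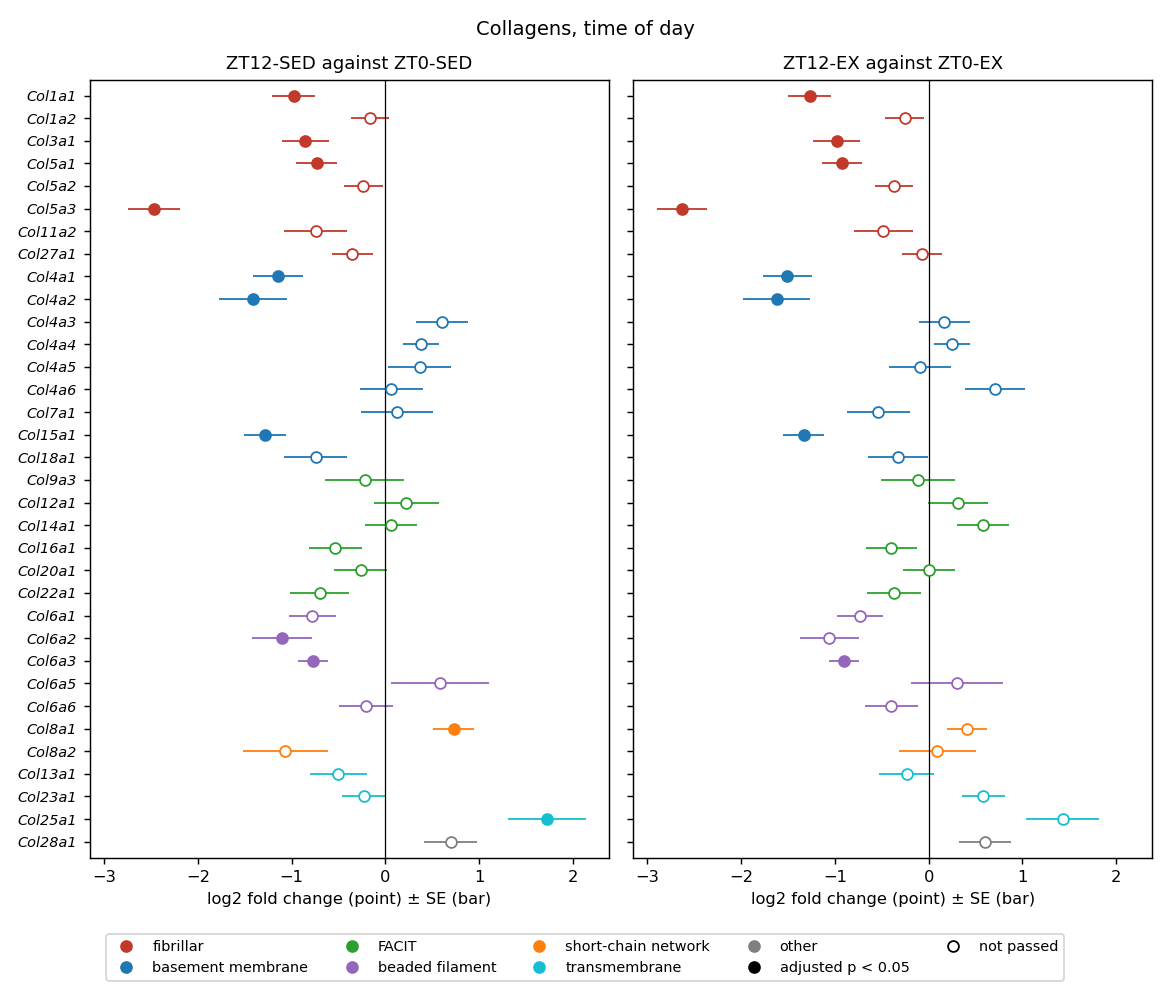
Log2 fold change of each of the 34 tested collagens at ZT12 against ZT0 in sedentary (left) and exercised hearts (right), with bars of 1 standard error and n = 6 mice per group. Filled points passed an adjusted p of 0.05. Col5a3 lies farthest to the left in both panels (-2.47 and -2.63), and the filled points to the right are Col8a1 and Col25a1 in sedentary hearts.

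The largest difference was that of Col5a3, a chain of type V collagen, which is built into fibrils together with types I and III. Its level was 12.5, 20.4 and 35.4 CPM (lowest, median and highest of 6) in ZT0-SED and 0.767, 4.63 and 9.20 CPM in ZT12-SED. Exercised hearts had 17.3, 28.8 and 46.3 CPM at ZT0 and 1.33, 4.91 and 8.88 CPM at ZT12. Every ZT0 heart lay above every ZT12 heart, in sedentary and in exercised mice alike. The fitted level was 5.54 times lower at ZT12 in sedentary mice (log2 -2.47 ± 0.28 SE, adjusted p = 3.69e-06) and 6.20 times lower in exercised mice (-2.63 ± 0.27, adjusted p = 1.10e-06).

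Col5a3 also differed within each flow cell. On flow cell 1 the sedentary hearts ranged from 12.5 to 18.1 CPM at ZT0 and from 0.767 to 1.49 CPM at ZT12, and on flow cell 2 from 22.7 to 35.4 and from 7.77 to 9.20 CPM. The ZT12-SED levels on flow cell 1 rest on 4, 15 and 29 counts. In fits to a single flow cell the sedentary difference was -3.56 (adjusted p = 0.000185) on flow cell 1 and -1.79 (adjusted p = 0.00276) on flow cell 2. The exercised difference was -2.75 (adjusted p = 0.0011) and -2.45 (adjusted p = 0.00158). It was the one collagen that passed on flow cell 2 alone, in either time-of-day comparison, where 0.231% of all genes passed in sedentary and 0.112% in exercised hearts. Without the 3 libraries that stood apart the values were -2.17 and -2.64, and both passed.

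The promoters of Col5a3 and Col15a1 are shown because these genes had the smallest adjusted p of the fibrillar and the basement membrane class in both time-of-day comparisons. Each run is the 250 bases before the RefSeq transcription start (GRCm38.p6), 5′ to 3′ on the strand of the gene, at chr9:20815068-20815317 (minus strand) for Col5a3 and chr4:47207762-47208011 (plus strand) for Col15a1. Capitals mark the CCAAT box and the GC box, GGGCGG or its reverse complement CCGCCC.
Col5a3: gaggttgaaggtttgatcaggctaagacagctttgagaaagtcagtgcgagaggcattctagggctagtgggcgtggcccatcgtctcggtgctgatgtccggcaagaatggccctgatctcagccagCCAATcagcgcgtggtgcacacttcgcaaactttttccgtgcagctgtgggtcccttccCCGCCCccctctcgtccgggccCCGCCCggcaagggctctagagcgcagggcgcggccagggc
Col15a1: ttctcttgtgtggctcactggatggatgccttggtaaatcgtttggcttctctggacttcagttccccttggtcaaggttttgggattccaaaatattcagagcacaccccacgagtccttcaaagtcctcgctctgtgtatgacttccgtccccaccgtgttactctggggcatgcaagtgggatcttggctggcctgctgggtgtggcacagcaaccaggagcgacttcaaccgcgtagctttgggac
The Col5a3 run holds 1 CCAAT box and 2 GC boxes, and none of the searched motifs is in the Col15a1 run. Among the 38 windows matched for 35 collagen genes, which run on to 50 bases after the start, 60.5% held a GC box and 34.2% a CCAAT box, beside 35.7% and 37.4% of the 32851 windows of all genes. The E-box CACGTG and the D-box TTATGTAA, sequences bound by clock-related factors, were in 0 of the 38 windows, and in 7.15% and 0.938% of all windows. Motifs were searched on both strands, and these are letter matches, not binding data.

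The chains of type I and type III collagen, which form most of the tensile fibre of the heart, did not all move alike. Col3a1 was 247, 262 and 404 CPM in ZT0-SED and 102, 174 and 205 CPM in ZT12-SED, and these groups did not overlap. The difference was 1.81-fold (log2 -0.85 ± 0.25, adjusted p = 0.04996), just past the threshold. In exercised hearts Col3a1 went from 184, 259 and 337 CPM at ZT0 to 56.1, 124 and 215 CPM at ZT12 (-0.98 ± 0.26, adjusted p = 0.0473), with overlap of the groups. Leaving out the 3 libraries that stood apart gave -0.75 (adjusted p = 0.0717) and -0.83 (adjusted p = 0.0211), so the sedentary call was lost. Each of the 2 calls was lost in 6 of 14 alternative fits. For exercised hearts these included the fit without the 6 libraries with skeletal muscle transcripts.

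Col1a1, the major chain of type I collagen, was 22.9, 53.8 and 90.2 CPM in ZT0-SED and 6.99, 31.5 and 60.9 CPM in ZT12-SED. The groups overlapped across flow cells but not within either of them. The fitted difference was 1.97-fold in sedentary (-0.98 ± 0.23, adjusted p = 0.0148) and 2.41-fold in exercised hearts (-1.27 ± 0.23, adjusted p = 0.00279). Without the 3 libraries the sedentary value was -0.80 (adjusted p = 0.0543) and no longer passed, while the exercised value was -1.17 and did.

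Its partner chain Col1a2 had levels of 84.1, 98.7 and 164 CPM in ZT0-SED and 57.2, 105 and 139 CPM in ZT12-SED. The sedentary groups overlapped on both flow cells, and neither difference passed (-0.16 ± 0.21, adjusted p = 0.586 in sedentary and -0.26 ± 0.21, adjusted p = 0.602 in exercised hearts). The ratio of Col1a1 to Col1a2, each per kb, was 0.478 to 0.669 in ZT0-SED and 0.228 to 0.253 in ZT12-SED on flow cell 1. On flow cell 2 it was 0.927 to 1.37 and 0.707 to 0.940. The ratio thus also differed between the flow cells within each of these groups, and the transcripts differ in GC content, 57.8% for Col1a1 and 46.8% for Col1a2.

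Type V collagen gave a like contrast between its chains. Col5a1 was 19.2, 31.5 and 42.4 CPM in ZT0-SED and 6.60, 19.0 and 36.6 CPM in ZT12-SED (-0.73 ± 0.22, adjusted p = 0.04996), and its difference in exercised hearts was -0.93 ± 0.22 (adjusted p = 0.0250). Without the 3 libraries the sedentary value was -0.45 (adjusted p = 0.194), and the exercised difference still passed. For Col5a2, the low-GC chain that pairs with Col5a1 and was picked here after its values were seen, the differences were -0.24 in sedentary and -0.37 in exercised hearts, and neither passed. Exons of Col5a1 overlap non-coding transcripts of the opposite strand over 99 and 113 bases, and those of Col3a1 a microRNA gene of the same strand over 141 bases. Whether counting used strand was not given in the sources used here.

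**Figure D2:**
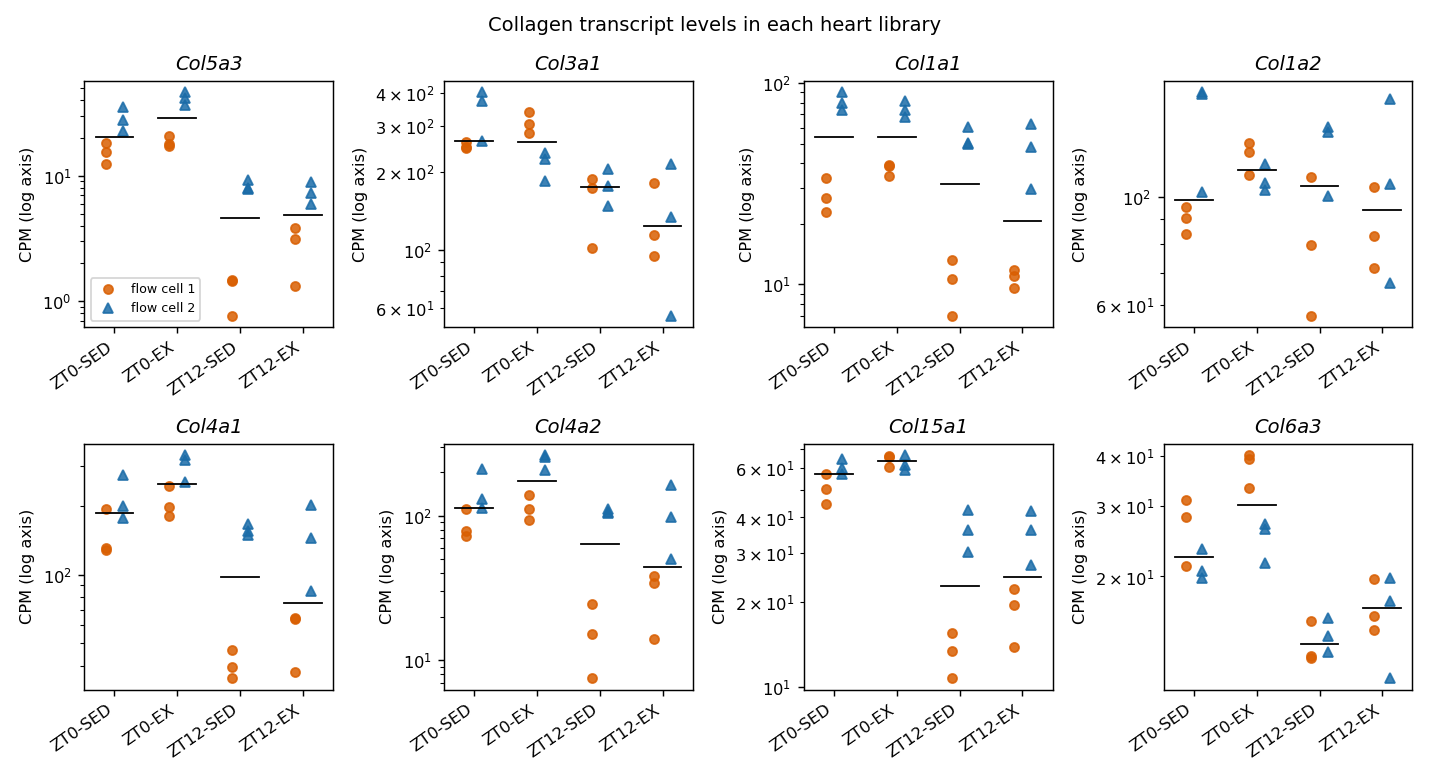
Levels of 8 collagens in each library, in CPM on a log axis, by group; circles are flow cell 1 and triangles flow cell 2, with 3 mice each, and the line is the median of 6. Col5a3, Col15a1 and Col6a3 have all ZT0 libraries above all ZT12 libraries of the same activity, whereas the groups of 6 overlap for Col1a2. Within each group Col1a1 and Col4a2 are lower on flow cell 1 than on flow cell 2. Col4a1 is too, except in ZT0-SED, where the flow cells overlap.

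In the basement membrane class, 3 of 9 chains were lower at ZT12 in both comparisons, and the remaining 6 did not pass in either. Col15a1, which lies between basement membranes and the fibrils around muscle cells and capillaries, was 44.8, 57.1 and 64.6 CPM in ZT0-SED and 10.7, 22.9 and 42.5 CPM in ZT12-SED. In exercised hearts it was 59.0, 63.6 and 66.7 CPM at ZT0 and 13.9, 24.6 and 42.1 CPM at ZT12. No ZT12 heart reached the lowest ZT0 heart of its activity group. The fitted differences were 2.43-fold (-1.28 ± 0.22, adjusted p = 0.00107) and 2.52-fold (-1.34 ± 0.22, adjusted p = 0.00113), and -1.02 and -1.28 without the 3 libraries, both past the threshold. An antisense gene overlaps 14 bases of its exons.

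Col4a1 was 128, 186 and 273 CPM in ZT0-SED and 35.1, 98.0 and 167 CPM in ZT12-SED. Its fitted difference was 2.21-fold in sedentary (-1.14 ± 0.26, adjusted p = 0.0132) and 2.85-fold in exercised hearts (-1.51 ± 0.26, adjusted p = 0.00198). Its partner Col4a2 was 72.4, 113 and 210 CPM in ZT0-SED and 7.48, 64.0 and 112 CPM in ZT12-SED, a difference of -1.41 ± 0.36 (adjusted p = 0.0263), with -1.62 ± 0.35 (adjusted p = 0.0152) in exercised hearts. Both chains overlapped between times of day over the 6 mice and were separated within each flow cell. Without the 3 libraries neither passed in sedentary hearts (-0.87, adjusted p = 0.0722 and -0.99, adjusted p = 0.0962), and both did in exercised hearts (-1.40 and -1.48).

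The genes Col4a1 and Col4a2 lie head to head: their RefSeq starts are 21 bases apart on opposite strands, and 22 bases of their exons overlap. On flow cell 1 the per-kb ratio of Col4a1 to Col4a2 was 1.45 to 1.60 in ZT0-SED and 1.71 to 4.66 in ZT12-SED, without overlap. On flow cell 2 it was 1.16 to 1.38 and 1.24 to 1.33, with overlap. The 4.66 was that of ZT12-SED 1, one of the 3 libraries that stood apart, with 39 Col4a2 counts, and the next highest ratio of that group was 2.06. The chains Col4a3, Col4a4, Col4a5 and Col4a6, which build the alternative type IV networks known from kidney and other specialised membranes, had sedentary estimates of 0.61, 0.38, 0.36 and 0.06. None of the 4 passed in either comparison, and they were picked here after their values were seen. Without the 3 libraries Col4a6 passed in exercised hearts as higher at ZT12 (0.90, adjusted p = 0.0135).

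Among the type VI chains, which form beaded filaments beside basement membranes, Col6a3 was lower at ZT12 in both comparisons. It was 19.9, 22.4 and 31.1 CPM in ZT0-SED and 12.5, 13.6 and 15.7 CPM in ZT12-SED. In exercised hearts it was 21.6, 30.1 and 40.2 CPM at ZT0 and 11.1, 16.7 and 19.8 CPM at ZT12, and neither pair of groups overlapped. The fitted differences were 1.71-fold (-0.77 ± 0.16, adjusted p = 0.00675) and 1.87-fold (-0.90 ± 0.16, adjusted p = 0.00238), and both passed without the 3 libraries (-0.65 and -0.84). With an offset for GC content, described with the other GC values, the sedentary difference was -0.38 (adjusted p = 0.217) and its call was lost, as it was with library totals and on flow cell 2 alone.

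The other main type VI chains had wider spreads. Col6a2 was 43.9, 57.6 and 93.9 CPM in ZT0-SED and 4.8, 28.6 and 72.1 CPM in ZT12-SED (-1.10 ± 0.32, adjusted p = 0.0463). Its difference in exercised hearts was -1.06 ± 0.32 (adjusted p = 0.0993), which did not pass, and in sedentary hearts it was -0.68 (adjusted p = 0.178) without the 3 libraries. Col6a1 had estimates of -0.78 ± 0.25 (adjusted p = 0.0627) and -0.73 ± 0.25 (adjusted p = 0.158). Both chains were separated between times of day on flow cell 1 and overlapped on flow cell 2.

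Over the 6 mice per group, 4 collagens were lower without overlap in ZT12-SED (Col3a1, Col5a3, Col15a1 and Col6a3) and 3 in ZT12-EX (Col5a3, Col15a1 and Col6a3). Such a separation was found for 0.811% and 0.719% of all genes. Col25a1 was higher without overlap in ZT12-SED, as were 0.889% of all genes.

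The classes at low level held the collagens that were higher at ZT12. Col25a1, a transmembrane collagen known from motor neuron innervation and from amyloid plaques, was 0.0594, 0.362 and 0.602 CPM in ZT0-SED and 0.722, 0.897 and 2.21 CPM in ZT12-SED (1.72 ± 0.42, adjusted p = 0.0187). These levels rest on 1 to 10 counts per library in ZT0-SED and 5 to 43 in ZT12-SED. In exercised hearts its estimate was 1.43 ± 0.39 (adjusted p = 0.0622), and without the 3 libraries both comparisons passed (1.99 and 1.52).

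Col8a1, a short-chain collagen of vessel walls, was 11.7, 14.0 and 20.4 CPM in ZT0-SED and 11.2, 20.9 and 54.9 CPM in ZT12-SED (0.73 ± 0.22, adjusted p = 0.04996). The highest ZT12 values were on flow cell 1, at 23.5 to 54.9 CPM, and on flow cell 2 the groups overlapped. Without the 3 libraries the value was 0.39 (adjusted p = 0.248), and in exercised hearts 0.41 ± 0.21 (adjusted p = 0.404). Its partner Col8a2 had 0 counts in 1 ZT12-SED library, and its sedentary estimate was -1.07 ± 0.45 (adjusted p = 0.112).

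No FACIT chain passed in either time-of-day comparison. Col14a1, the most abundant of them and a regulator of fibril surfaces, had estimates of 0.06 ± 0.28 in sedentary and 0.58 ± 0.28 (adjusted p = 0.342) in exercised hearts. Col16a1 was 3.25, 8.99 and 20.5 CPM in ZT0-SED and 0.582, 8.66 and 16.3 CPM in ZT12-SED (-0.53 ± 0.28, adjusted p = 0.181), and Col20a1 had estimates of -0.26 and 0.01. The transmembrane chains Col23a1 and Col13a1 had sedentary estimates of -0.23 ± 0.24 and -0.50 ± 0.30, and Col28a1, a collagen with von Willebrand factor domains, one of 0.69 ± 0.28 (adjusted p = 0.0986). None of these 3 passed in either comparison.

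The flow cells differed in how large the time-of-day difference was. The median log2 difference over the 34 collagens was -0.72 (flow cell 1) and -0.08 (flow cell 2) in sedentary hearts, and -0.33 and -0.16 in exercised hearts. Among sedentary hearts 30 of 34 collagens differed more on flow cell 1, and 29 had the same sign on both flow cells. Among exercised hearts 23 differed more on flow cell 1 and 25 had the same sign. Neither was counted over all genes. Of the collagens, 16 were lower without overlap at ZT12 on flow cell 1, where 29.3% of all genes were, and 9 on flow cell 2, where 6.39% of all genes were. On each flow cell 3 were higher without overlap, beside 24.3% and 6.6% of all genes. In exercised hearts 14 were lower on flow cell 1 (all genes 22.9%) and 7 on flow cell 2 (all genes 6.94%). There 3 were higher on flow cell 1 (all genes 19.0%) and 1, Col23a1, on flow cell 2 (all genes 3.96%). The 9 that were lower on flow cell 2 in sedentary hearts were the 8 that passed in both comparisons and Col8a2.

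The summed level of the family was lower at ZT12 on both flow cells. In sedentary hearts it was 910 to 1069 CPM at ZT0 and 445 to 622 CPM at ZT12 on flow cell 1, and 1431 to 1508 and 918 to 1109 CPM on flow cell 2. In exercised hearts the sum was 1261 to 1317 CPM at ZT0 and 584 to 675 CPM at ZT12 on flow cell 1. On flow cell 2 it was 1321 to 1555 and 566 to 1187 CPM. The 566 CPM was that of ZT12-EX 4, one of the 3 libraries that stood apart, and the other ZT12-EX libraries of flow cell 2 had 1081 and 1187 CPM. The ZT12 sums were below the ZT0 sums in all 4 of these pairs of groups.

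**Figure D3:**
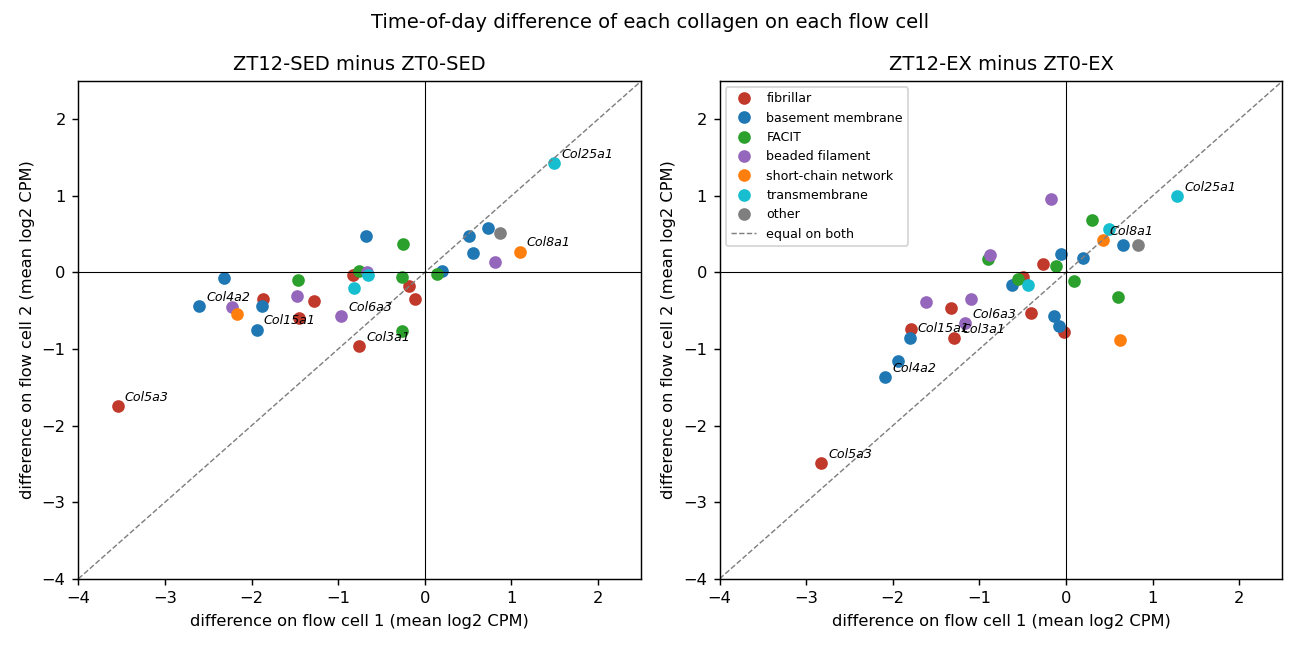
Difference of mean log2 CPM between ZT12 and ZT0 for each of the 34 collagens on flow cell 1 (x axis) and flow cell 2 (y axis), 3 mice per group and flow cell, coloured by class; the dashed line marks equal differences. In sedentary hearts (left) most points below 0 lie above the line, so the difference was larger on flow cell 1, and Col5a3 is lowest on both axes.

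Transcript GC content moved with these differences. The tested collagens had a median GC content of 55.0%, against 49.97% over all tested genes, and ranged from 45.4% for Col8a1 to 64.1% for Col11a2. Over the 34 collagens, Spearman's correlation between GC content and the sedentary difference was -0.70 in the flow cell 1 hearts and -0.37 in those of flow cell 2, and -0.33 and -0.43 for the exercised difference. The points share libraries, and genes are not independent replicates. Across all genes, the correlation of GC content with the level relative to the average library was -0.84 to -0.78 in ZT12-SED on flow cell 1, -0.73 to -0.59 in ZT12-EX there, -0.52 to 0.26 in the ZT0 libraries there and 0.44 to 0.71 on flow cell 2.

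With an offset for the GC trend of each library, 3 collagens remained lower in ZT12-SED: Col5a3 (-1.87), Col3a1 (-1.03, adjusted p = 0.0153) and Col15a1 (-0.88, adjusted p = 0.00167). Col25a1 remained higher (1.68, adjusted p = 0.0176), and 3.42% of all genes passed. The sedentary values of Col1a1 (-0.31), Col4a1 (-0.54), Col4a2 (-0.73), Col6a2 (-0.62), Col6a3 (-0.38), Col5a1 (-0.16) and Col8a1 (0.44) no longer passed, and the median over the family was -0.04.

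In exercised hearts 7 collagens were lower with that offset: Col5a3 (-2.27), Col4a1 (-1.21), Col4a2 (-1.21), Col15a1 (-1.14), Col3a1 (-1.07), Col1a1 (-0.90) and Col6a3 (-0.73). Col23a1 and Col25a1 were higher, and 2.62% of all genes passed. Col3a1, Col1a2 and Col5a2 all had a GC content of 46.8%, among the lowest of the family. Of these Col3a1 alone passed with the offset, in both comparisons. Col5a3, with one of the higher GC contents, 60.7%, also passed in both. The part of GC content in the differences was not tested.

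**Figure D4:**
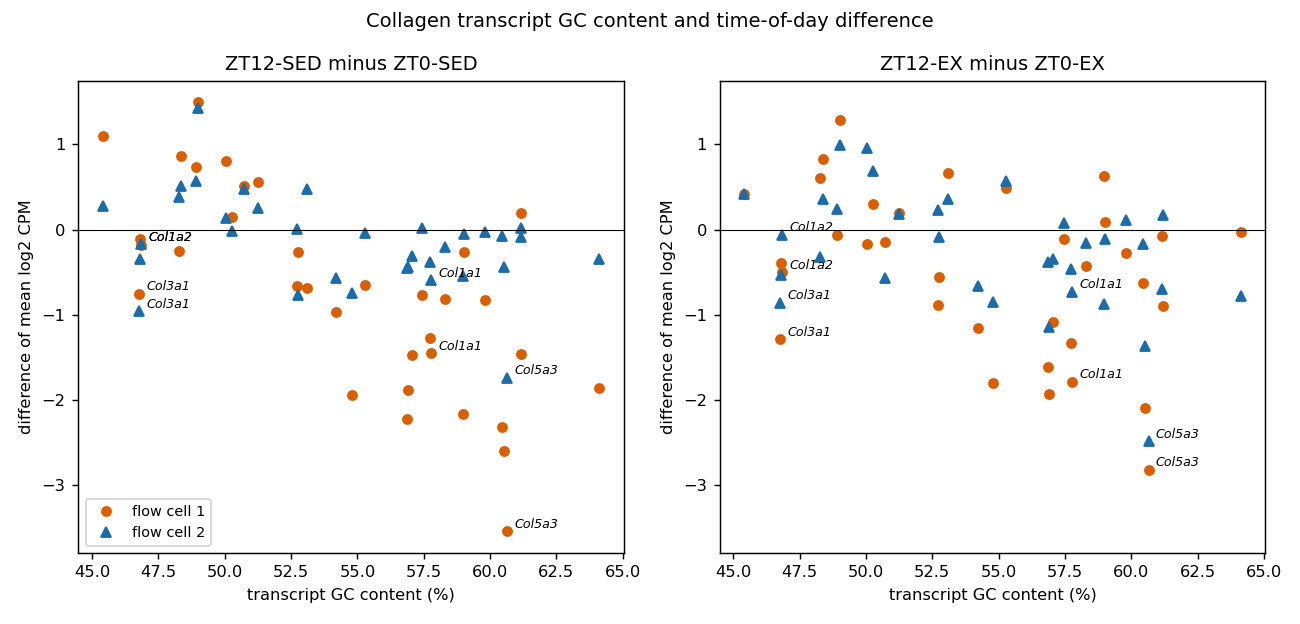
GC content of the transcript in percent (x axis) and difference of mean log2 CPM between ZT12 and ZT0 (y axis) of the 34 collagens, in sedentary (left) and exercised hearts (right); circles are flow cell 1 and triangles flow cell 2. High-GC collagens lie lowest on flow cell 1 of the sedentary hearts (Spearman -0.70). Col3a1 and Col1a2, both at a GC content of 46.8%, are labelled, as are Col1a1 and Col5a3.

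Markers of the cells that make collagen were read beside these results. The 9 fibroblast markers summed to 2171 to 3488 CPM in ZT0-SED and 2191 to 4079 CPM in ZT12-SED, ranges that overlap, and to 2097 to 3476 and 2033 to 4410 CPM in the exercised groups. One of the 9, Meox1, a transcription factor of fibroblasts, was lower at ZT12 (-1.20 ± 0.17 and -0.80 ± 0.16). Of all genes, 2.74% were lower at ZT12 in sedentary and 0.837% in exercised hearts. The 8 endothelial markers summed to 750 to 788 CPM in ZT0-SED and 432 to 716 CPM in ZT12-SED on flow cell 1, without overlap. On flow cell 2 the sums were 724 to 913 and 670 to 768 CPM. Of these markers Cldn5, a tight junction protein, and Egfl7, an endothelial secreted factor, were lower in sedentary hearts (-2.35 and -1.09), as were 2.74% of all genes. In exercised hearts the sums were 705 to 855 CPM at ZT0 and 586 to 864 CPM at ZT12, and 0 of the 8 passed. On flow cell 1, 8 pericyte and smooth muscle markers summed to 609 to 1005 CPM in ZT0-SED and 888 to 1396 CPM in ZT12-SED. Their flow cell 2 sums were 531 to 794 and 626 to 701 CPM. Exercised hearts had 690 to 903 CPM at ZT0 and 329 to 1065 CPM at ZT12, and 0 of these 8 passed in either comparison. The 8 markers of cartilage, tendon and valve summed to 38.0 to 142 CPM in ZT0-SED, 35.5 to 121 CPM in ZT12-SED, 56.6 to 111 CPM in ZT0-EX and 67.6 to 165 CPM in ZT12-EX. Of the 5 tested, the tendon factor Scx was lower in both comparisons (-1.72 and -1.65) and the other 4 did not pass, with estimates of -0.88 to -0.26 in sedentary and 0.07 to 1.45 in exercised hearts. No marker on these lists was at 0 in all libraries of a group except Matn1, a cartilage gene, at ZT0. The part of cell content in the collagen differences was not tested.

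Exercise gave no collagen past the threshold at either time. At ZT0, 0 of 34 passed in edgeR, where 1.08% of all genes did. There were 2 at an unadjusted p under 0.05, as were 10.4% of all genes, and DESeq2 called 1, as it did 1.75% of all genes. At ZT12, 0 of 34 passed in edgeR, where 0.294% of all genes did (0.105% as lower). There were 7 at an unadjusted p under 0.05, as were 16.4% of all genes, and DESeq2 called 1, as it did 1.51% of all genes. The median log2 fold change over the family was 0.20 at ZT0 and 0.19 at ZT12, beside -0.01 and 0.06 over all genes. All 9 basement membrane chains had positive estimates at ZT0, from 0.08 to 1.33, and all 6 FACIT chains at ZT12, from 0.20 to 0.76. So did the 5 tested type VI chains at both times and the 3 tested transmembrane chains at ZT12. None of these passed in edgeR, and the classes were named after their values were seen. Of all 15294 genes, 7485 were positive at ZT0 and 8581 at ZT12. Basement membrane medians at ZT0 were 0.46 (flow cell 1) and 0.30 (flow cell 2). The FACIT medians at ZT12 were 0.83 and 0.07. Type VI medians were 0.50 and -0.24 at ZT0, and 0.65 and -0.18 at ZT12. Transmembrane medians at ZT12 were 0.46 and -0.12. The medians of these last classes were thus positive on flow cell 1 and negative on flow cell 2. On flow cell 2 at ZT0, 2 basement membrane chains were higher without overlap and 1 lower. One of the basement membrane chains, Col7a1, passed in DESeq2 at ZT0. Over the 6 mice per group 0 collagens separated in either direction, where 0.987% of all genes were higher and 0.608% lower without overlap at ZT0, and 0.17% and 0.0915% at ZT12.

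The flow cells also differed in the exercise comparisons. At ZT0 the median over the collagens was 0.42 for flow cell 1 and 0.03 for flow cell 2. On flow cell 1, 17 collagens were higher in ZT0-EX without overlap (all genes 11.2%) and 0 lower (all genes 9.81%), and on flow cell 2, 3 were higher (all genes 11.1%) and 5 lower (all genes 8.4%). Col3a1 was higher without overlap on flow cell 1 (0.29) and lower without overlap on flow cell 2 (-0.67). At ZT12 the medians were 0.48 and -0.16, and 12 collagens were higher without overlap on flow cell 1 (all genes 13.2%) and 0 on flow cell 2 (all genes 2.74%). None was lower without overlap there on either flow cell (all genes 9.75% and 3.86%). On flow cell 2 skeletal muscle transcripts summed to 888 to 3166 CPM in the 3 ZT0-EX libraries, to 733 CPM in 1 ZT0-SED library, and were also high in 1 library each of ZT12-SED (1083 CPM) and ZT12-EX (1106 CPM). The part of these in the differences was not tested.

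Col7a1, the anchoring fibril collagen of skin, had the smallest adjusted p of the family in the exercise comparison at ZT0 and was picked here after its values were seen. It was 0.045, 0.477 and 1.86 CPM in ZT0-SED and 0.106, 1.63 and 3.51 CPM in ZT0-EX. Its counts were 1 to 4 and 2 to 11 per library on flow cell 1, and 12 to 38 and 52 to 80 on flow cell 2, where the groups did not overlap. The estimate was 2.52-fold (log2 1.33 ± 0.35, adjusted p = 0.0695). It passed in DESeq2, with the replicate block and without the 3 libraries that stood apart, and without the 6 libraries with skeletal muscle transcripts it was 1.34 (adjusted p = 0.624).

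Col23a1, a transmembrane collagen, had the smallest adjusted p at ZT12. It was 1.92, 5.89 and 8.72 CPM in ZT12-SED and 6.82, 8.92 and 15.8 CPM in ZT12-EX, groups that overlap. The estimate was 1.76-fold (0.82 ± 0.24, adjusted p = 0.155), with differences of 1.40 (flow cell 1) and 0.36 (flow cell 2), and it passed in DESeq2. At ZT0 its own estimate was 0.00 ± 0.23.

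**Figure D5:**
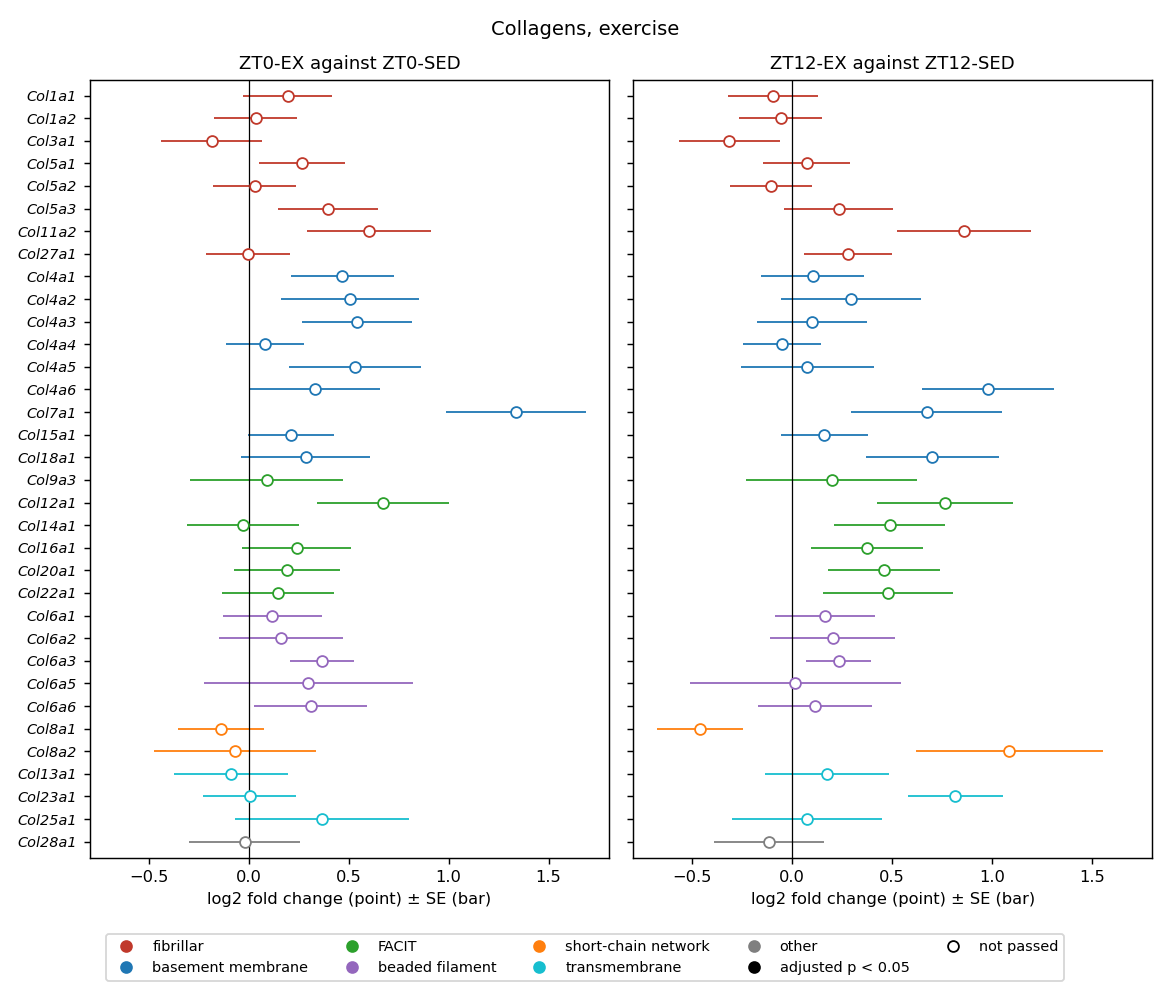
Log2 fold change of each of the 34 tested collagens in exercised against sedentary hearts at ZT0 (left) and ZT12 (right), with bars of 1 standard error and n = 6 mice per group. All points are open, since none passed an adjusted p of 0.05; the farthest to the right are Col7a1 at ZT0 (1.33) and Col8a2 at ZT12 (1.09).

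Whether the response to exercise depended on time of day was tested by the interaction, and 0 of 34 collagens passed, as did 0 of all genes. At an unadjusted p under 0.05 there was 1, Col23a1 (0.81 ± 0.33, adjusted p = 0.571), and DESeq2 called 0 collagens and 5 of all genes. The interaction estimate was -0.16 ± 0.37 for Col5a3, -0.05 ± 0.31 for Col15a1, -0.13 ± 0.23 for Col6a3 and 0.04 ± 0.44 for Col6a2. It equals the difference between the exercised and the sedentary time-of-day effect, so the calls of Col6a2, Col8a1 (-0.32 ± 0.30, adjusted p = 0.658) and Col25a1 (-0.29 ± 0.57, adjusted p = 0.835) in sedentary hearts alone were not shown to differ from exercised hearts.

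A few genes that prepare collagen chains for secretion rose with exercise. Of 17 tested genes for hydroxylation and folding of the chains, 2 rose at ZT0 and 2 at ZT12, where 0.791% and 0.19% of all genes did. P4ha1, the catalytic subunit of the main collagen prolyl hydroxylase, rose at ZT0 (1.10 ± 0.15, adjusted p = 0.000109) and at ZT12 (1.18 ± 0.15, adjusted p = 0.000356). P4ha2, its paralogue, rose at ZT0 (0.81 ± 0.19, adjusted p = 0.0358), with 0.82 ± 0.19 (adjusted p = 0.0728) at ZT12. Serpinh1, the collagen chaperone of the endoplasmic reticulum, rose at ZT12 (0.79 ± 0.16, adjusted p = 0.0321), with 0.48 ± 0.16 (adjusted p = 0.234) at ZT0. Serpinh1 was also the 1 gene of this list that was lower at ZT12 than at ZT0, in sedentary (-1.04 ± 0.16, adjusted p = 0.000366) and exercised hearts (-0.74 ± 0.16, adjusted p = 0.0158).

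Of 12 genes for propeptide processing and crosslinking, Loxl1, a lysyl oxidase that crosslinks chains, was lower in ZT12-SED than in ZT0-SED (-1.16 ± 0.27, adjusted p = 0.0132) and the other 11 did not pass. In that comparison 2.74% of all genes were lower. None of 8 fibril-associated proteoglycan and matrix genes and none of 12 laminin, nidogen and other basement membrane partner genes passed in any comparison. Of 8 tested collagen receptors, the leukocyte receptor Lair1 was lower with exercise at ZT0 (-0.96 ± 0.23, adjusted p = 0.0374) and higher in ZT12-EX than in ZT0-EX (0.98 ± 0.23, adjusted p = 0.0246), comparisons that share the ZT0-EX libraries. The integrin Itga11, a fibroblast receptor for fibrillar collagen, was lower in ZT12-EX (-1.52 ± 0.37, adjusted p = 0.0301). Of all genes, 0.288% were lower with exercise at ZT0, and 0.837% were lower and 0.811% higher in ZT12-EX than in ZT0-EX.

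Genes of collagen breakdown moved in both directions with time of day. Of 10 tested, 2 were lower and 2 higher in sedentary hearts, beside 2.74% and 2.46% of all genes. In exercised hearts 1 was lower and 2 were higher, beside 0.837% and 0.811%. Mmp14, a membrane-bound collagenase, was lower at ZT12 (-1.35 ± 0.22, adjusted p = 0.000446 and -1.01 ± 0.21, adjusted p = 0.011). Timp3, an inhibitor of such proteases that binds matrix, was higher (1.37 ± 0.20, adjusted p = 0.00021 and 1.06 ± 0.20, adjusted p = 0.00475). Timp4 (1.29 ± 0.21) was higher and Mmp9 (-1.28 ± 0.36), named after its value was seen, lower in sedentary hearts, and the collagen-degrading cathepsin Ctsk (0.94 ± 0.21) was higher in exercised hearts. In TGF-beta signalling, a main inducer of collagen transcription, the matrix-associated growth factor gene Ccn2 was higher with exercise at ZT0 (1.14 ± 0.28, adjusted p = 0.0473). Ccn2 was also higher in ZT12-SED than in ZT0-SED (1.06 ± 0.28, adjusted p = 0.0335), and these comparisons share the ZT0-SED libraries.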

How the data were processed

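RNA of 24 mouse hearts was extracted with Trizol, selected for poly-A and sequenced from TruSeq libraries, per the labels. The deposited values are whole-number counts per Ensembl gene, not normalized. Per the submitters' processing notes, the tools were Trimmomatic 0.39 for trimming, HISAT2 2.2.1 for alignment (GRCm39) and featureCounts 2.0.1 for counting. The annotation release, strand use and treatment of multi-mapping reads were not given in the sources used here. Symbols, lengths and GC content were taken from a GRCm38 annotation, by Ensembl identifier, for 52093 of 52350 genes, and the 257 without a symbol held 0.0013% of counts.

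The test was that of edgeR 4.0.16 (R 4.3.3): filterByExpr on the groups, TMM, and robust quasi-likelihood fits of all 24 libraries with group and flow cell as terms. Adjusted p-values are Benjamini-Hochberg values of the two-sided quasi-likelihood F test over 15294 genes, with a threshold of 0.05. SE is that of the log2 fold change. Differences within a flow cell are of mean log2 CPM (prior count 2) over 3 mice per group, unless a fit to that flow cell is named. The fit was tested on simulated data.

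The members and gene lists were chosen with earlier results of these data known, so no test adjusted over a list is given and the lists are not independent evidence. Named collagens were those past the threshold in any comparison and the 3 highest per kb of each class, and up to 3 genes per list with the smallest p. Alternatives were DESeq2 size factors, library totals, no filter and a stricter filter (1 CPM in 6 libraries), DESeq2 1.42.0, the compared groups alone, either flow cell by itself, a fit that ignores flow cell, a replicate block, GC offsets (loess, span 0.5), both together, and leaving out the 6 or the 3 libraries named. Promoters came from RefSeq (GRCm38.p6), while gene coordinates were not used because the builds differ. No pair of libraries of a group looked like a repeated deposit (chi-square per df at least 13.3 in 60 pairs). A count of 3 was 0.575 CPM in the shallowest library. One gene of the TGF-beta signalling list is not reported here.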

Additional observations from a re-analysis of the deposited data

Results flagged for a closer look

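In 7 of 136 sets of 6 libraries (34 collagens in 4 groups), 1 library lay far from the other 5 in log2 CPM, by the gap relative to the range. Chance alone gives about 1 such set in 20. In 5 of the 7 the library was ZT12-EX 4, the lowest of its group, one of the 3 that stood apart by their scaling factor. It had 3.90 for Col5a2, 1.75 for Col4a3, 2.12 for Col4a5, 0.39 for Col4a6 and -0.60 for Col12a1. These are fibrillar, type IV and FACIT chains of moderate to low level, and their transcripts have a GC content of 46.8% to 53.1%, below the collagen median of 55.0% and on both sides of the median of all tested genes, 49.97%. Col4a5 was highest in ZT12-SED 1, at 5.04, which is another of the 3 libraries. Col4a4 was lowest in ZT0-SED 3, at 3.27.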

How the results depend on the processing

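The share of all genes that passed is given in brackets. The 11 collagens called in sedentary hearts at ZT12 against ZT0 (5.2%) became 2 with library totals (1.53%), 7 without a filter (1.51%), 2 without a flow cell term (0.843%), 17 of 31 tested on flow cell 1 alone (43.5%) and 1 on flow cell 2 alone (0.231%). They became 4 with GC offsets (3.42%), 4 without the 3 libraries that stood apart (2.79%) and 6 in a fit of the compared groups alone (1.69%). The 8 in exercised hearts (1.65%) became 4 with library totals (0.556%), 2 without a flow cell term (0.405%), 10 of 31 tested on flow cell 1 alone (1.26%), 1 on flow cell 2 alone (0.112%) and 12 without the 3 libraries (6.49%). Exercise at ZT0 gave 1 in DESeq2 (1.75%) and 1 without the 3 libraries (2.43%), and exercise at ZT12 gave 1 in DESeq2 (1.51%). Col5a3 passed in all 14 alternatives in both time-of-day comparisons (-3.56 to -1.79 and -2.86 to -2.27), and Col15a1 in 12 of 14 in each. Of the other sedentary calls, Col5a1, Col6a2 and Col8a1 passed in 5 of 14, Col4a2 in 6, and Col1a1, Col3a1 and Col4a1 in 8. Col6a3 passed there in 10 of 14 and Col25a1 in 9 of 12. In exercised hearts Col3a1 and Col5a1 passed in 8, Col4a2 in 10, and Col1a1, Col4a1 and Col6a3 in 12 of 14. Library totals moved the median of all genes to -0.18 in sedentary hearts at ZT12 and to 0.20 in exercise at ZT12.

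With the replicate block, 7 collagens passed in sedentary hearts (3.98%) and 4 with the block and GC offsets (3.3%), and 1 passed for exercise at ZT0 (1.05%). The numbers did not pair the hearts beyond the flow cell: deviations from group and flow cell means of same-numbered hearts had a median correlation of 0.0065 over 36 pairs.

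The median over the family changed sign in exercise at ZT0 on flow cell 2 alone (-0.053), and at ZT12 on flow cell 2 alone (-0.021), with GC offsets (-0.011) and with the replicate block and GC offsets (-0.029). The median interaction turned positive with library totals (0.030), without a filter (0.042) and on flow cell 1 (0.18) or flow cell 2 alone (0.056). The cause was not tested. Depth limits Col7a1, Col8a2, Col9a3, Col11a2 and Col25a1, with as few as 0 or 1 counts in a library.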
